A study of Homo sapiens with 8 samples.

Results

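The 4 ID genes and 6 further genes of the bone morphogenetic protein (BMP) pathway were examined in 4 prostate cancer cell lines after siRNA against DNA-PK. They were ID1, ID2, ID3, ID4, SMAD6, SMAD7, SMAD9, BMPR1B, BMP4 and BAMBI, 10 of the 22395 genes that had a probe set with a single symbol. They were chosen by name for their place in the pathway, with their signals and differences on these arrays already known. These values are therefore given as a description, without a test. Each of the 10 had 1 probe set with a single symbol, and all 10 passed the filter on low signal, which kept 16796 genes with a mean above 2.51 on the log2 scale.

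The groups were cells transfected with siRNA against DNAPK, named si7DNAPK in the labels, and cells transfected with non-targeting siRNA. Both were harvested after 48 hours, with 1 array per treatment in each of C4-2B, DU145, PC3 and VCaP. The series asked how DNA-PK shapes transcription in prostate cancer, with Wnt signalling named in its title. C4-2B and PC3 were kept in RPMI1640 and DU145 and VCaP in DMEM, so medium and line cannot be told apart. The protocols name no added BMP ligand. Each line is an established culture, and the knockdown was transient and partial. Values are log2 signals, each difference is DNAPK siRNA minus non-targeting siRNA, and a difference of 1 is a doubling of signal. Signals of different probe sets are not comparable, so levels are compared only within a gene.

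BMP ligands bind a pair of type I and type II serine/threonine kinase receptors, which phosphorylate the receptor SMADs (SMAD1, SMAD5 and SMAD9). With SMAD4 these enter the nucleus and switch on target genes, of which the ID genes are the best known. ID proteins carry a helix-loop-helix domain without a DNA-binding region, and hold E proteins such as TCF3 away from DNA, which can keep cells from differentiating. SMAD6 and SMAD7 are also induced by the pathway and inhibit it in a feedback loop. BMP signalling is studied in prostate cancer for its part in bone metastasis.

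The promoters of the ID genes are shown because these genes differed together in VCaP. Those of SMAD6 and BAMBI are shown because, among members with a single listed start, they held a longer SMAD motif. BMP4, with 3 listed starts, held GGCGCC before the first of them. Each run is the 250 bases before the start of the gene (RefSeq, GRCh38.p14), 5′ to 3′ on the gene's strand. They lie for ID1 at chr20:31605039-31605288 (plus strand), ID2 at chr2:8681806-8682055 (plus strand), ID3 at chr1:23559502-23559751 (minus strand), ID4 at chr6:19837120-19837369 (plus strand), SMAD6 at chr15:66701986-66702235 (plus strand) and BAMBI at chr10:28677271-28677520 (plus strand). Capitals mark 3 motifs, searched on both strands. The SMAD palindrome was searched as GTCTAGAC. The GC-rich element that BMP SMADs are known to bind was searched as GGCGCC. The TATA box, which places the start of transcription in some promoters, was searched as TATAAA.
ID1: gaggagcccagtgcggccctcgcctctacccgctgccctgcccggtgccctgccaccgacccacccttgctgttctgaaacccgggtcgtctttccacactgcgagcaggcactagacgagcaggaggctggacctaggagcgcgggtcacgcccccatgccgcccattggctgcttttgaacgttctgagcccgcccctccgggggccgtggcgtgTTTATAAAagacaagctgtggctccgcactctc
ID2: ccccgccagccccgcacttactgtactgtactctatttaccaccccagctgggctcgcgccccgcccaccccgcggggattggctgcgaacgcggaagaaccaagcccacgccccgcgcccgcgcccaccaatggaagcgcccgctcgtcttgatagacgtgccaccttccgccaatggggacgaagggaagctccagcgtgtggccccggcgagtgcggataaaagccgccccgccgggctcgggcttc
ID3: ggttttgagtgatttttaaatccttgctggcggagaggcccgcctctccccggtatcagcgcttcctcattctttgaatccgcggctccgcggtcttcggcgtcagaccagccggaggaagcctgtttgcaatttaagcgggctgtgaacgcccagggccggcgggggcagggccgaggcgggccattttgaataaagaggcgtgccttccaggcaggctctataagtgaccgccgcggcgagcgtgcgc
ID4: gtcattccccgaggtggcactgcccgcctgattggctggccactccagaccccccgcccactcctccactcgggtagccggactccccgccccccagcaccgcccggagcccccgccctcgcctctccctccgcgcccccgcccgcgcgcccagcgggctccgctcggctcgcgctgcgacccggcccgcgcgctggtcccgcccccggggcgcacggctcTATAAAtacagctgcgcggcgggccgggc
SMAD6: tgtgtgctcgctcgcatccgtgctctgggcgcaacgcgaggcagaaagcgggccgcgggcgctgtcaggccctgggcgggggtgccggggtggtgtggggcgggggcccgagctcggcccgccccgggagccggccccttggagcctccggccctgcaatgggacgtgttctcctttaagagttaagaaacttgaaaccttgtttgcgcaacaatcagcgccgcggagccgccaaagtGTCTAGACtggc
BAMBI: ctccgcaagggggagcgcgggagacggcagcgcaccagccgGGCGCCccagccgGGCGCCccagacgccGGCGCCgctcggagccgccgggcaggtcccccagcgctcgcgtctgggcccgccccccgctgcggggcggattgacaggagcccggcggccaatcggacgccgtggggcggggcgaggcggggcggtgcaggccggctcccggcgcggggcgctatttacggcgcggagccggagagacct

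ID1 and ID4 had a TATA box close to the start, at -33 to -26 (overlapping matches on both strands) and at -29 to -24, where -1 is the last base before the start. A TATAAA match was present in 10.7% of the 35116 windows of this length in the table. SMAD6 held the palindrome GTCTAGAC at -12 to -5, a run found in 0.182% of windows. BAMBI held GGCGCC at 3 positions, starting at -209, -196 and -181, against 16.4% of windows with at least 1. The 4 ID windows held neither of these elements. They held the short SMAD element GTCT, on either strand, 3, 2, 2 and 1 times in ID1, ID2, ID3 and ID4, but 77.5% of windows held it, and each GTCTAGAC includes it on both strands. The BMP-responsive enhancer of Id1 known from mouse lies further upstream than these windows. No binding was measured here, and a match does not show a site in use.

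PRKDC, which encodes the catalytic subunit of DNA-PK, kept 65.0% of its control signal in VCaP, 47.2% in DU145, 25.1% in PC3 and 17.4% in C4-2B. The mean over lines was -1.56 ± 0.86 (SD, n = 4 lines). The knockdown was thus weakest in VCaP, the line in which the ID genes differed most. VCaP also had the widest differences over all genes, with an SD of 0.462 against 0.327 (PC3), 0.334 (DU145) and 0.288 (C4-2B). PRKDC ranked 1442 from the bottom of 16796 genes in VCaP, where 8.58% of genes were lower still. It ranked 1 in C4-2B, 3 in PC3 and 105 in DU145. The drop of the target thus did not stand out from other genes in VCaP. Of the epithelial markers, EPCAM read 8.84 to 9.66, KRT8 3.58 to 5.14 and KRT18 4.37 to 5.47 over the 8 arrays. KRT8 differed by 0.78 in PC3 and by -0.42 in VCaP. TMPRSS2, an androgen-regulated marker of luminal prostate cells, differed by 1.20 in DU145. It read 3.37 with DNAPK siRNA and 2.18 with control there, the latter below the filter level, against 6.72 to 9.56 in the other lines. ERG read 8.65 with DNAPK siRNA and 8.57 with non-targeting siRNA in VCaP, which is known for its ERG fusion. KLK3, the PSA gene, known to be expressed in VCaP, read 4.75 and 4.46 there in the same order, against 2.94 to 3.84 on the arrays of DU145 and PC3 and 10.12 to 10.24 in C4-2B. Of 7 markers of immune, endothelial and fibroblast cells, PTPRC and DCN stayed below the filter level on every array, at 1.30 to 2.02 and 1.38 to 1.68. CDH5 (2.76 to 3.18) and COL1A1 (3.63 to 5.06) were above it on every array, and CD3E, VWF and LUM on some.

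All 4 ID genes were higher with DNAPK siRNA in VCaP, by 1.37 to 2.40 on the log2 scale, and they were the only members past 1 in that direction in any line. In VCaP 216 of 16796 genes, or 1.29%, were higher by over 1. These differences come from 1 array per treatment and carry no replicate check. Of the 4 ID genes, 2 lay above 0 in PC3 (all genes 55.5%), 1 in DU145 (56.9%) and 2 in C4-2B (57.1%).

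ID1 read 6.24 with DNAPK siRNA and 3.84 with non-targeting siRNA in VCaP, 5.28 times the control signal. This was the fourth highest difference of all genes tested in that line. PC3 gave 7.93 with DNAPK siRNA and 7.78 with control, DU145 gave 8.40 and 8.62, and C4-2B gave 6.09 and 6.51, in the same order. The VCaP control array was the lowest of the 8, and the siRNA array brought VCaP to a signal near that of C4-2B.

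ID2 read 5.93 with DNAPK siRNA and 4.56 with non-targeting siRNA in VCaP, a fold of 2.58. In the other lines signals were 4.13 with DNAPK siRNA and 4.08 with control (PC3), 4.36 and 4.56 (DU145), and 4.36 and 4.17 (C4-2B). Apart from the VCaP siRNA array, all signals of ID2 lay between 4.08 and 4.56. ID2 is itself counted among Wnt targets as well as BMP targets.

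ID3 went opposite ways in DU145 and VCaP. It read 4.74 with DNAPK siRNA and 3.08 with non-targeting siRNA in VCaP, a fold of 3.16. In DU145 it read 4.66 with DNAPK siRNA and 5.75 with non-targeting siRNA, a difference of -1.09 that left 46.9% of the control signal. In DU145 137 genes, or 0.816%, were lower by over 1, and ID3 was the single member among them. In C4-2B ID3 read 4.05 and 3.87 and in PC3 3.17 and 3.22, with DNAPK siRNA first, and both pairs lay close together.

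ID4 was set apart by its level in VCaP. It read 8.65 with DNAPK siRNA and 7.06 with non-targeting siRNA there, a fold of 3.01. PC3 gave 2.66 with DNAPK siRNA and 2.92 with control, DU145 gave 2.07 and 1.80, and C4-2B gave 2.42 and 3.30. The difference in C4-2B, -0.89, was thus between an array below the filter level of 2.51 and one not far above it, and both DU145 arrays were below it.

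**Figure D1:**
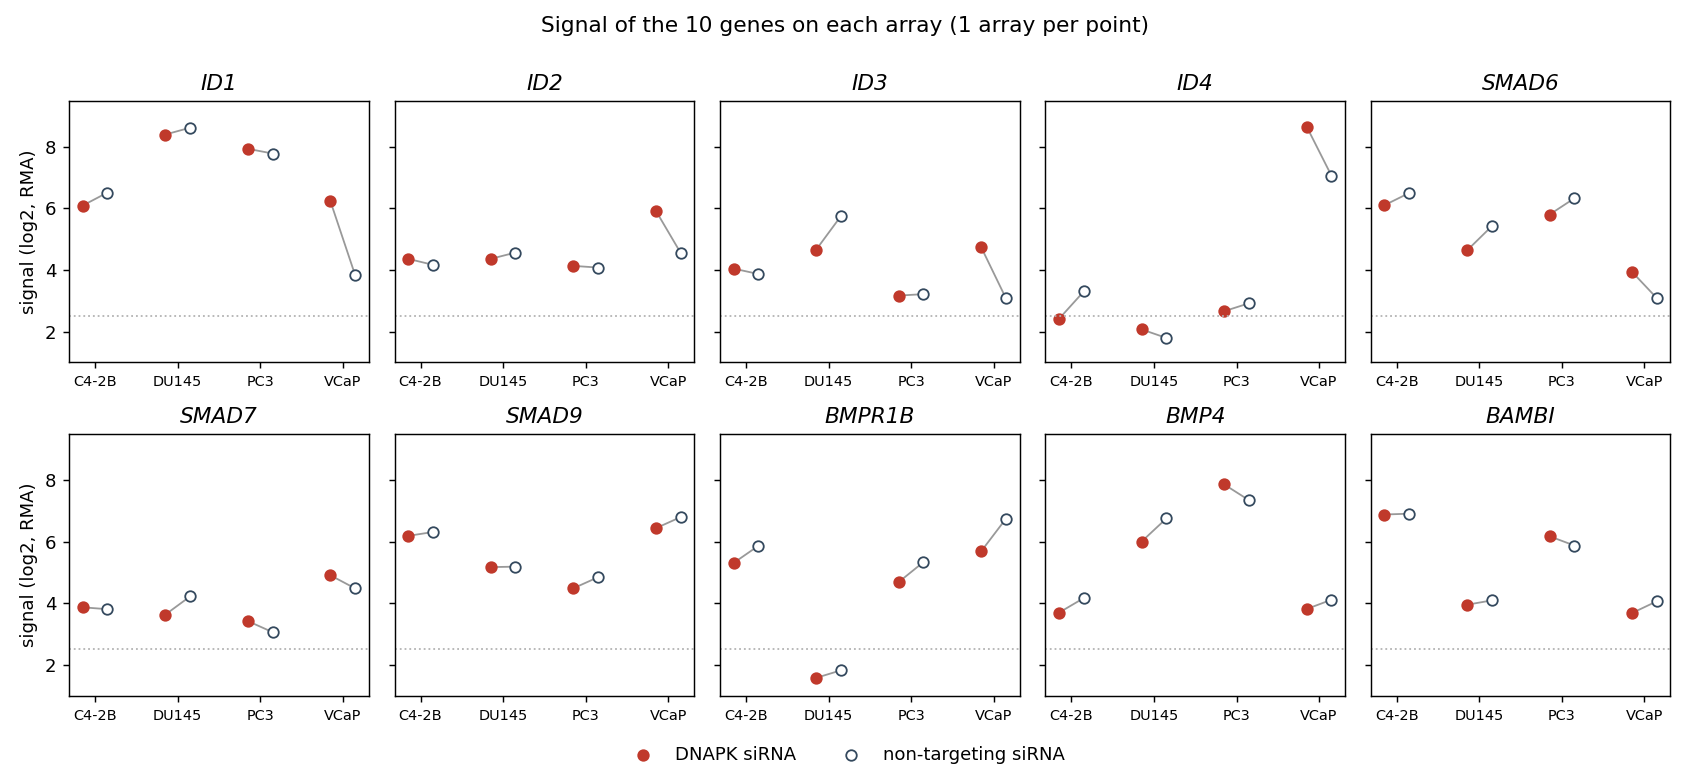
Signal (log2, RMA) of each gene on the 8 arrays, with DNAPK siRNA (filled) left of non-targeting siRNA (open) in each line; each point is 1 array and the dotted line is the filter level of 2.51. The 4 ID genes have their filled points well above the open ones in VCaP, and BMPR1B has each filled point below its open one.

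The feedback inhibitors SMAD6 and SMAD7 were also higher in VCaP, by less. SMAD6 read 3.94 with DNAPK siRNA and 3.08 with non-targeting siRNA in VCaP, a difference of 0.85. In the other lines it was lower with DNAPK siRNA. PC3 gave 5.80 with DNAPK siRNA and 6.33 with control, DU145 gave 4.63 and 5.42, and C4-2B gave 6.10 and 6.50. Without VCaP the mean difference of SMAD6 was -0.57 ± 0.20 (SD, n = 3 lines), and with VCaP it was -0.21 ± 0.73 (SD, n = 4 lines).

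SMAD7, which blocks both BMP and TGF-beta receptors, read 4.91 with DNAPK siRNA and 4.49 with non-targeting siRNA in VCaP. In DU145 it read 3.63 and 4.23, in PC3 3.43 and 3.07, and in C4-2B 3.87 and 3.81, with DNAPK siRNA first. In DU145 the differences of SMAD6, SMAD7 and ID3 were -0.79, -0.59 and -1.09. In that line 4 of 10 members were lower by over 0.5, where 5.55% of all genes were, and the fourth was BMP4.

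BMPR1B and SMAD9, which act upstream of the ID genes, lay below control in every line. BMPR1B encodes a type I BMP receptor. It read 5.31 with DNAPK siRNA and 5.87 with control in C4-2B, 4.69 and 5.34 in PC3, and 5.69 and 6.75 in VCaP, in that order. In DU145 the signals were 1.58 and 1.83, both below the filter level. The differences were -0.56, -0.65, -1.06 and -0.24 in these lines, with a mean of -0.63 ± 0.34 (SD, n = 4 lines). In VCaP BMPR1B thus kept 48.0% of its control signal while the ID genes were higher. It was the only member lower by over 1 there, where 2.42% of genes were.

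SMAD9 encodes a BMP receptor SMAD also called SMAD8. VCaP gave 6.44 with DNAPK siRNA and 6.80 with control, PC3 4.49 and 4.85, DU145 5.18 and 5.19, and C4-2B 6.19 and 6.32. The differences ran from -0.36 in PC3 and VCaP to -0.01 in DU145, with a mean of -0.22 ± 0.17 (SD, n = 4 lines). BMPR1B and SMAD9 were the 2 of 10 members below control in 4 of 4 lines, and 5.89% of all genes were.

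BMP4, a ligand, was higher with DNAPK siRNA in PC3, its highest line, and lower in the others. It read 7.86 with DNAPK siRNA and 7.35 with control in PC3. It read 6.01 and 6.76 in DU145, 3.70 and 4.17 in C4-2B, and 3.82 and 4.12 in VCaP, with DNAPK siRNA first. The mean difference was -0.25 ± 0.54 (SD, n = 4 lines), smaller than the spread between lines. It was -0.09 without DU145 and -0.51 without PC3.

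BAMBI encodes a pseudoreceptor that lacks a kinase domain and dampens TGF-beta and BMP signals. It differed by -0.38 in VCaP, by 0.30 in PC3 and by less in C4-2B and DU145. VCaP gave 3.69 with DNAPK siRNA and 4.07 with control, PC3 6.18 and 5.88, DU145 3.96 and 4.10, and C4-2B 6.89 and 6.91. Its mean difference was -0.06 ± 0.28 (SD, n = 4 lines). BAMBI and BMP4 had the same sign in each line, above 0 in PC3 and below 0 in C4-2B, DU145 and VCaP. BAMBI was only at -0.03 in C4-2B and -0.14 in DU145, and sign matches over all genes were not counted.

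**Figure D2:**
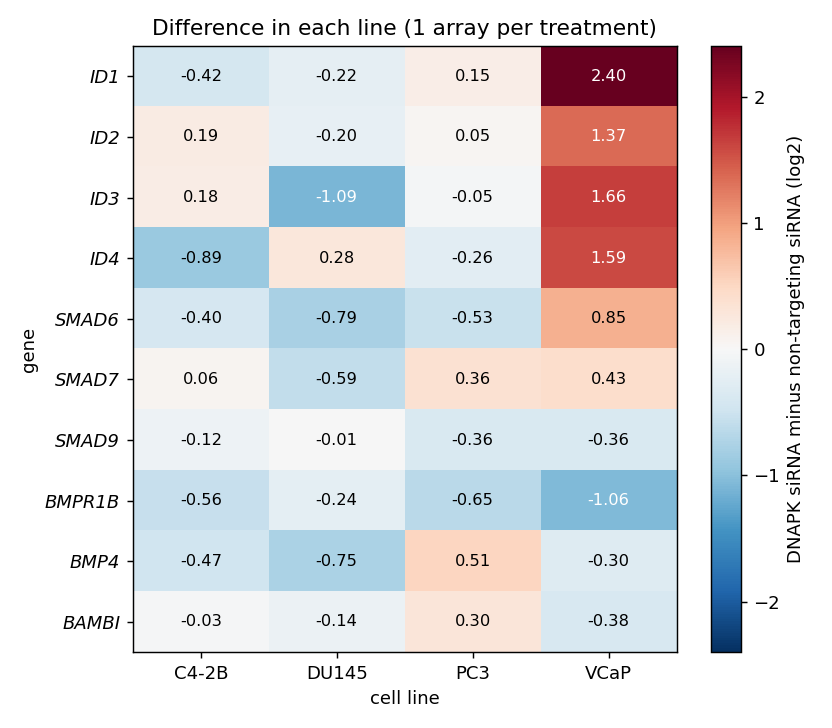
Difference in signal (log2, DNAPK siRNA minus non-targeting siRNA) of the 10 genes (rows) in the 4 lines (columns), with the value in each cell and red for higher with DNAPK siRNA. The VCaP column runs from -1.06 (BMPR1B) to 2.40 (ID1), while 9 of 10 genes lie below 0 in DU145.

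Members above 0 numbered 6 of 10 in VCaP, 5 in PC3, 1 in DU145 and 3 in C4-2B. Over all genes tested the shares above 0 were 49.7%, 55.5%, 56.9% and 57.1% in these lines. The medians of the members were 0.64 in VCaP, 0.0034 in PC3, -0.23 in DU145 and -0.26 in C4-2B, beside -0.0032, 0.04, 0.05 and 0.04 over all genes. In VCaP 5 of 10 members were higher by over 0.5 (all genes 10.5%). In C4-2B 2 members, ID4 and BMPR1B, were lower by over 0.5 (all genes 3.76%). PC3 had 2 members lower by over 0.5, BMPR1B and SMAD6 (all genes 5.22%), and 1 higher, BMP4 (6.08%).

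The positions in VCaP set the ID genes apart from the other members. ID1 ranked 4, ID3 21, ID4 30 and ID2 53 from the top of 16796 genes in that line. SMAD6 ranked 406 and SMAD7 2387. Markers of other cell types were read beside these values. LUM, a matrix gene of fibroblasts, was at 3.50 with DNAPK siRNA and 4.62 with non-targeting siRNA in VCaP. The other 6 markers differed there by -0.22 to 0.41, 3 of the 7 lying above 0, and the median of the 7 was 2.24 with DNAPK siRNA and 2.44 with non-targeting siRNA. The part of such cells in the VCaP values was not tested.

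**Figure D3:**
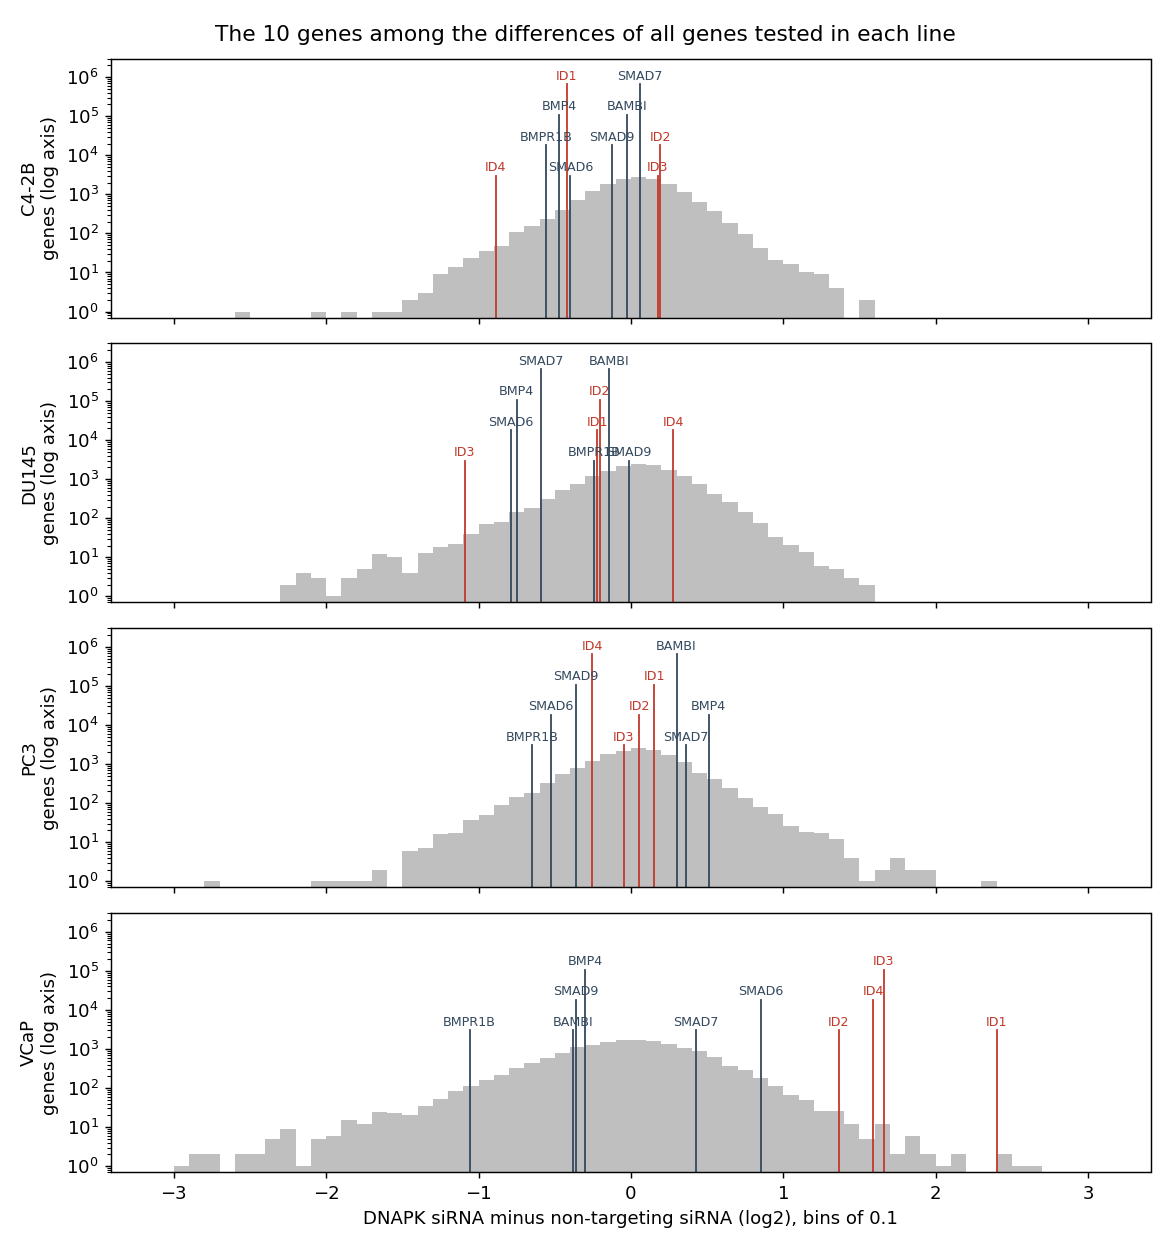
Histograms of the difference (log2, DNAPK siRNA minus non-targeting siRNA) of 16796 genes in each line, with the number of genes on a log axis and lines marking the ID genes (red) and the other 6 genes (dark). In VCaP the ID genes lie in the right tail, from 1.37 to 2.40, and in the other lines they lie among the bulk or to the left.

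The means of the ID genes, SMAD6, SMAD7 and BAMBI moved by over 1.5 times or changed sign without VCaP, and those of SMAD9, BMPR1B and BMP4 did not. ID1 averaged 0.48 ± 1.30, ID2 0.35 ± 0.69, ID3 0.17 ± 1.13 and ID4 0.18 ± 1.05 over 4 lines (SD, n = 4 lines), and SMAD7 0.06 ± 0.46. Without VCaP the means were -0.16 for ID1, 0.015 for ID2, -0.32 for ID3, -0.29 for ID4, -0.06 for SMAD7 and 0.04 for BAMBI. They were -0.17 for SMAD9, -0.48 for BMPR1B and -0.24 for BMP4. The number of members with a mean above 0 was 5 with all lines and 2 without VCaP. A limma fit over all genes, with the line as a block, gave an adjusted p under 0.05 to 0 of 16796 genes (0% of genes), members included. The smallest adjusted p was 0.688 by limma, so PRKDC, the target of the siRNA, was not called either. The 0 calls therefore do not show that the members did not respond. Before adjustment 1208 genes had a p under 0.05. An exact sign-flip test of 4 pairs cannot give a 2-sided p below 0.125. Setting the response of VCaP and C4-2B against that of PC3 and DU145 gave 0 calls too (0% of genes, 621 at an unadjusted p under 0.05, smallest adjusted p = 0.991 by limma).

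Levels were also compared between lines. The line means of 7 of the 10 members, each the mean of its 2 arrays, spanned over 2 on the log2 scale, against 15.5% of all genes. In 6 of the 10 both arrays of the highest line lay above all other arrays, which held for 55.2% of all genes. The members were picked with these levels known, so nothing is read from either count.

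ID1 was highest in DU145, at 8.51, then in PC3 at 7.86, C4-2B at 6.30 and VCaP at 5.04. The arrays of C4-2B and VCaP overlapped, and the other neighbours did not. ID4 was highest in VCaP, at 7.86, far above C4-2B (2.86), which overlapped with PC3 (2.79), while DU145 was lowest (1.93). Thus VCaP had the lowest mean of ID1 and the highest of ID4. ID3 was highest in DU145, where its arrays read 4.66 and 5.75, then in C4-2B (3.96), VCaP (3.91) and PC3 (3.19), where the arrays of VCaP overlapped with those of each other line. The order of C4-2B and VCaP turned round after median centring and after cyclic loess. ID2 spanned 1.14 between VCaP (5.24) and PC3 (4.11), and 0.49 between its highest and lowest line on control arrays alone, with overlaps of VCaP with DU145 (4.46) and of DU145 with C4-2B (4.26).

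Genes of the signalling machinery had their own orders. BMPR1B had 6.22 in VCaP, 5.59 in C4-2B and 5.02 in PC3, each overlapping with its neighbour, and 1.71 in DU145, which did not. SMAD9 followed the order VCaP (6.62), C4-2B (6.26), DU145 (5.19) and PC3 (4.67), with no overlaps. BMP4 was highest in PC3 (7.61) and DU145 (6.38), clear of each other and of VCaP (3.97) and C4-2B (3.94), which overlapped.

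The inhibitors were ordered otherwise. SMAD6 had 6.30 in C4-2B and 6.06 in PC3, which overlapped, then 5.03 in DU145 and 3.51 in VCaP, both clear. BAMBI followed the same order, with 6.90, 6.03, 4.03 and 3.88, where only DU145 and VCaP overlapped. SMAD7 was highest in VCaP (4.70), clear of DU145 (3.93), which overlapped with C4-2B (3.84), and lowest in PC3 (3.25). On control arrays alone the first 2 places of ID2 and the order of the lowest lines of ID3 and BMP4 changed, and the order of the other 7 genes did not.

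Other genes of the BMP pathway were read from 7 lists, of which 52 genes passed the filter on signal. None of them differed by over 1 in any line, where 1011 of all 16796 genes tested did. Of the 52, 0 passed the limma test in either direction, which PRKDC did not pass either. Their median mean difference was -0.03, beside 0.03 over all genes tested, with 22 above 0 and 30 below. Over all genes tested 9469 of 16796 lay above 0. In VCaP their median was -0.06. In that line 1.29% of all genes were higher by over 1 and 2.42% lower. Few of 52 genes would pass 1 at such shares, so nothing is read from finding none.

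The genes named from each list were picked for the largest absolute mean difference, which favours genes with the same sign in all lines. Of 9 ligand genes above the filter, 5 had a mean difference above 0 (median 0.01). BMP3, an atypical ligand that can antagonise others, had -0.27 ± 0.09, below 0 in each line. GDF7 had -0.23 ± 0.49, mostly from VCaP, where it read 1.97 with DNAPK siRNA and 2.93 with control. Of 7 receptor and co-receptor genes, 5 lay above 0 (median 0.06). ENG, the co-receptor endoglin, had 0.21 ± 0.31, and RGMB, a BMP co-receptor of the repulsive guidance family, had 0.15 ± 0.53 (SD, n = 4 lines for each).

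Among the 3 SMAD effectors the median was -0.14. SMAD5, a receptor SMAD, had 0.32 ± 0.27 and lay above 0 in each line, opposite in sign to SMAD9. In DU145 both were near 0, at 0.01 for SMAD5 and -0.01 for SMAD9. SMAD5 read 7.65 with DNAPK siRNA and 7.05 with control in VCaP and 7.41 and 6.91 in C4-2B. SMAD4, the common partner, had -0.18 ± 0.12 and lay below 0 in each line, as did 5.89% of all genes. SMAD5 had 2 probe sets and SMAD4 had 3, and only the brightest of each is given. Of 12 secreted antagonists 4 lay above 0 (median -0.09). NOG, which encodes noggin, had -0.40 ± 0.36, with the largest difference in PC3, at 4.53 with DNAPK siRNA and 5.38 with control. DAND5, of the DAN family, had -0.33 ± 0.43 (SD, n = 4 lines for each).

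Of 10 intracellular regulators 3 lay above 0 (median -0.07). TOB1, an antiproliferative protein that dampens BMP SMADs in mouse bone cells, had -0.44 ± 0.39. It was lower in C4-2B, DU145 and PC3, by -0.50, -0.70 and -0.67, and read 7.68 with DNAPK siRNA and 7.54 with control in VCaP. The signs matched those of SMAD6, but the VCaP difference was only 0.14 and such matches were not counted over all genes. STUB1, a ubiquitin ligase that acts on SMADs, had 0.22 ± 0.08 and lay above 0 in each line. Of 8 other BMP target genes 2 lay above 0 (median -0.09), with DLX5, a homeobox gene of bone, at -0.26 ± 0.24 and HAMP, the iron hormone hepcidin, at -0.22 ± 0.27. In VCaP, where the ID genes were higher, this list had a median of -0.14. Most of its genes read low there. On the VCaP siRNA array RUNX2, MSX2, DLX3 and MSX1 read 2.54, 2.69, 2.99 and 3.18, not far above the filter level of 2.51. The highest of the list on that array was JUNB, at 4.93, with a difference of -0.07 in VCaP. Such low signals limit what the median can show, and whether BMP targets responded together in VCaP was not tested. Of the 3 E protein genes whose products ID proteins bind, TCF3 had 0.16 ± 0.11 and TCF4 0.05 ± 0.23 (SD, n = 4 lines for each).

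**Figure D4:**
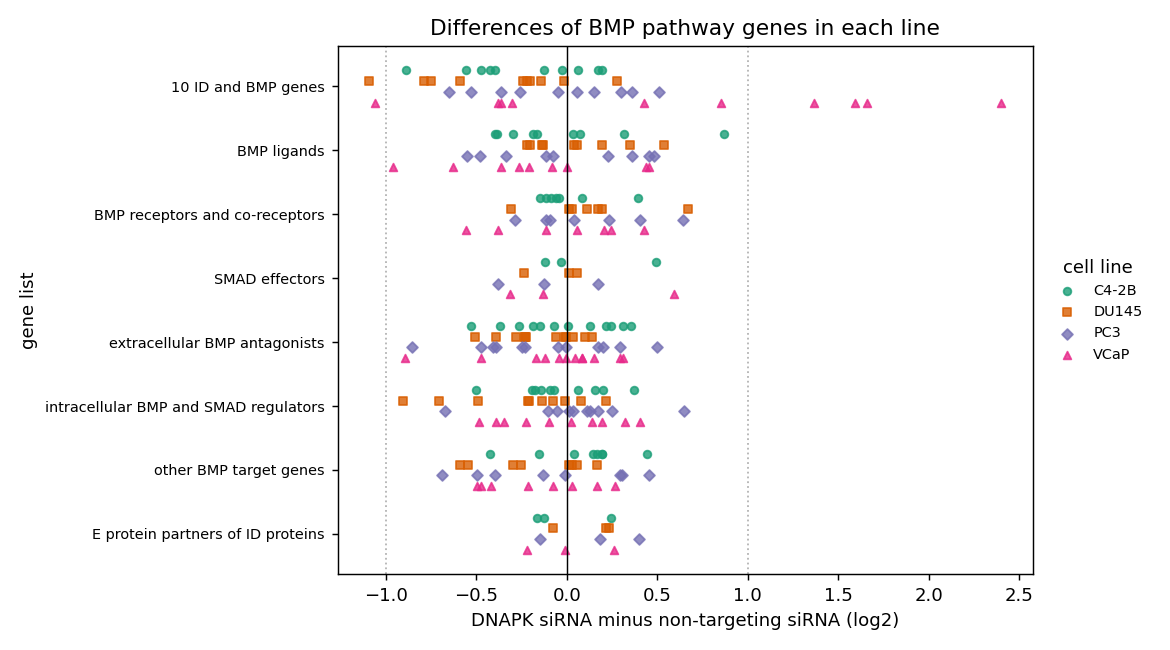
Difference in signal (log2, DNAPK siRNA minus non-targeting siRNA) of the 10 genes (top row) and of 7 lists of other BMP pathway genes, with 1 point per gene and line and dotted lines at -1 and 1. Only points of the top row lie beyond the dotted lines.

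Genes with the signal pattern most like that of each ID gene were found by Pearson correlation over the 8 arrays, which share lines and so are not independent. For ID1 they were MYO1E, a class I myosin (r = 0.986), SLC2A1, the glucose transporter GLUT1 (0.982), and PDE4A, a cAMP phosphodiesterase (0.980). SLC2A1 read 8.07 with DNAPK siRNA and 6.92 with control in VCaP, and MYO1E was higher there by 1.14. ID1 was itself lowest on the VCaP control array, so the choice of these genes favoured a rise in VCaP. For ID4 they were MIR340 (0.992), BCLAF1 (0.991) and CLNS1A (0.990), genes that, like ID4, were highest in VCaP. The VCaP arrays thus weigh strongly in the values for ID4. For ID2 they were SLC6A13 (0.983), MIOX (0.978) and HCRTR2 (0.975), each with its highest signal on the VCaP siRNA array. ID2 was also highest there, so 1 array weighs strongly in these values. The signals were low, at 2.83 to 3.75 for SLC6A13, 2.56 to 3.07 for MIOX and 3.32 to 4.39 for HCRTR2. For ID3 they were CIMIP2A (0.968), the keratin pseudogene KRT16P2 (0.965) and the RNA helicase gene DDX19A (0.949). KRT16P2 and DDX19A each have near-identical relatives whose RNA a probe set may also catch, which makes those values uncertain.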

How the data were processed

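The authors deposited log2 signals per probe set for 8 arrays, made with oligo and RMA (robust multi-array average) per the submitters' processing notes, with no version or genome build given. RMA makes array distributions alike, so a change shared by most genes is removed. Array medians were 2.94 to 2.99. No detection call or scan batch was used here, and the number of arrays limits the precision.

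Of 53617 probe sets, 23871 had 1 gene symbol, 1842 several and 27904 were unnamed here. Symbols were updated by Entrez identifier for 22569, and each gene was read from its brightest probe set by mean. Genes at or below the 25th percentile of mean signal were set aside. Treatment was tested with limma 3.58.1 (R 4.3.3), 2-sided, with the cell line as a block (3 residual degrees of freedom) and Benjamini-Hochberg adjustment over all genes. The line pairs the arrays by design. The labels do not say that cultures were replicated, so p-values measure the spread between 4 lines. The fits were checked on simulated data with changes shared by all 4 lines or by both C4-2B and VCaP. That check does not cover a change in 1 line only. The members and gene lists were chosen with earlier results of these data known. Named genes are the members, PRKDC, the 2 genes of each list with the largest absolute mean difference, any list gene past 1 in a line, and the 3 genes most correlated with each ID gene, besides markers. Alternatives were 2 scalings, 2 filters, averaged probe sets, a variance trend, no block and leaving out each line. Promoter sequences are those of RefSeq, and all 10 members matched the table.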

Additional observations from a re-analysis of the deposited data

Results flagged for a closer look

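Among 30 sets of 4 values (the DNAPK siRNA arrays, the control arrays and the differences of each of the 10 genes), 2 held a value far from the other lines by Dixon's criterion at 95%, which chance alone meets in about 5% of sets, so 2 of 30 is close to that rate. The genes were chosen with these values known, so both are given as a description. On DNAPK siRNA arrays ID2 read 5.93 in VCaP, with the nearest line at 4.36. On the same arrays ID4 read 8.65 in VCaP, with the nearest line at 2.66. On control arrays neither was set apart by this criterion.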

How the results depend on the processing

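With median centring, cyclic loess, no filter, a filter at the 50th percentile, averaged probe sets, a variance trend, no replicate block, or any 1 line left out, limma called 0 genes, as in the fit reported, and 63 (no replicate block) to 1550 (no filter) genes had an unadjusted p under 0.05. PRKDC stayed below 0 at an unadjusted p under 0.05 in each, with means of -1.87 to -1.23 when 1 line was left out. Under the 2 scalings, 1 of 80 differences of members within lines changed sign (ID2 in PC3, -0.02 after median centring), and the largest shift of a member was 0.087. Of 40 member means with 1 line left out, 6 changed sign. Of these, 5 were without VCaP (ID1 -0.16, ID3 -0.32, ID4 -0.29, SMAD7 -0.06, BAMBI 0.04) and 1 without PC3 (SMAD7 -0.03). With the same sign, leaving out DU145 moved ID2 to 0.54, ID3 to 0.60, SMAD6 to -0.02, SMAD7 to 0.28, BMP4 to -0.09 and BAMBI to -0.04. Leaving out PC3 moved ID4 to 0.33, SMAD6 to -0.11, BMP4 to -0.51 and BAMBI to -0.18, and leaving out C4-2B moved ID1 to 0.78 and ID4 to 0.54. The span of line means was 0.49 for ID2 on control arrays alone, against 1.14 over both arrays. It was 4.78 for ID1 and 4.92 for BMPR1B on control arrays alone, against 3.47 and 4.52 over both arrays, and 2.13 for SMAD9 after median centring, against 1.95. Each line had 1 array per treatment, so culture and siRNA cannot be separated within it.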
